A study of Mus musculus with 21 samples.

Results

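Immediate early genes are switched on within minutes of a stimulus, from transcription factors that are already present in the cell. Most of them code for transcription factors themselves. Fos and Fosb proteins pair with Jun and Junb to form AP-1, Egr1, Egr2 and Egr3 are zinc finger factors, Atf3 is a stress-induced factor of the ATF/CREB family, Ier2 is a small nuclear protein, and Dusp1 is a phosphatase that switches off the MAP kinases upstream of the others. In the heart the family is known for its response to stretch and to a raised load. The 10 genes named here (Fos, Fosb, Jun, Junb, Egr1, Egr2, Egr3, Atf3, Ier2 and Dusp1) were taken by symbol from the 22136 genes of the count table, and all 10 were found. The Nr4a genes, which belong to the same class, were not included.

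RNA-seq of left ventricular tissue of male C57BL/6J mice, bought at 8 weeks of age, gave 21 libraries. In transverse aortic constriction (TAC) a suture around the aortic arch loads the left ventricle, and semaglutide (Sema) activates the GLP-1 receptor. The groups were TAC 8W + Sema 8W and TAC 8W + Sema 4W (8 weeks of TAC with Sema injected daily for all 8 or for the last 4 weeks, n = 3 each), TAC 8W (n = 3), sham-operated mice given the same courses (Sham + Sema 8W, Sham + Sema 4W, 3 libraries each), and 6 Sham libraries without Sema. The labels give the Sema dose as 60 mg per kg and day and the study's methods as 60 µg. All mice carried the wild-type genotype, and the Sham + Sema group whose titles give no duration was taken as the 8-week one. In the count table the Sema columns of TAC mice are named high and M and those of sham mice M or nothing. High was read as Sema 8W, because the 8-week experiment used a high dose among lower ones, and M as Sema 4W by elimination. No source explains M, and the study also used an intermediate dose for which it could stand. That the values given for Sema 4W belong to a 4-week course, and to the dose in the labels, rests on this reading. The shams were kept apart by their running numbers, Sham 1-3 beside the 8-week groups and Sham 4-6 beside the 4-week groups, which no label states. Whether each library came from a separate mouse is not given in the sources used here, so p-values measure the spread between libraries.

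Total counts were 8897837 to 17170139 per library (median 12933772). The share of counts on 13 mitochondrial genes was 43.8 to 54.9% in the 9 libraries of the 4-week groups with Sham 4-6, and 20.2 to 40.8% in the 12 others. The labels call the material cardiomyocytes. The sum of 8 cardiomyocyte markers was 35837 to 124857 CPM (counts scaled to the size of the library), but 6 fibroblast markers reached 197 to 1748 CPM and 6 endothelial markers 281 to 703 CPM, so other heart cells were present. In such bulk tissue, fewer cells of a type and less RNA per cell cannot be told apart. TAC 8W + Sema 4W replicate 3 stood apart from its group, with correlations of 0.883 and 0.884 to the other libraries of the group over the log2 CPM of all genes tested, against 0.973 between those. Replicates 1 and 2 of that group had the lowest chi-square of counts per degree of freedom of any pair within a group, 6.50. The next lowest pair, Sham + Sema 8W replicates 1 and 2, had 12.4, and sampling noise gives about 1. Replicates 1 and 2 of TAC 8W + Sema 4W were counted as separate samples, but this value cannot show that they came from different hearts.

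RefSeq promoters (GRCm38.p6) are shown for 6 members, to let the regulatory letters be read beside the values that follow. Fos, Fosb, Egr2 and Atf3 were the 4 members called higher after TAC, and Dusp1 followed a different pattern. Jun is the member, of those whose promoters were searched, that lacked the motif in capitals. The capitals mark the core of the cAMP response element (CRE), which CREB and ATF proteins bind, as TGACG on the strand shown or CGTCA for the other strand. Each run holds the 250 bases before the start site, 5′ to 3′ on the strand of the gene.
Fos promoter, chr12:85473640-85473889, plus strand: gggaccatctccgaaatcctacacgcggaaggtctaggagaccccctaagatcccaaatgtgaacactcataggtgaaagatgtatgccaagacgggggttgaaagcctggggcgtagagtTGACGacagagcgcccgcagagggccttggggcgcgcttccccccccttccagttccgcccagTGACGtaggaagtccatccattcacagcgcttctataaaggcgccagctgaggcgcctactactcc
Fosb promoter, chr7:19310046-19310295, minus strand: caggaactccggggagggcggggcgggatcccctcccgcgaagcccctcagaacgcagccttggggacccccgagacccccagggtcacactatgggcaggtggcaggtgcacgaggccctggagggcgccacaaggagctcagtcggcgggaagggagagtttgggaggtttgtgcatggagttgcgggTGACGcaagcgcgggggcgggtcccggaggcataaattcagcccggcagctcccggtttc
Jun promoter, chr4:95052223-95052472, minus strand: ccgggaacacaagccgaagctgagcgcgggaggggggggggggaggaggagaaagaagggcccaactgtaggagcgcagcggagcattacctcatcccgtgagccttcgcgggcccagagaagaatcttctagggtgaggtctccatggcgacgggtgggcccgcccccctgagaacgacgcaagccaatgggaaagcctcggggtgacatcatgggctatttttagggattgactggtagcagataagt
Egr2 promoter, 1 of 5 listed starts and the first with the most motifs, chr10:67537619-67537868, plus strand: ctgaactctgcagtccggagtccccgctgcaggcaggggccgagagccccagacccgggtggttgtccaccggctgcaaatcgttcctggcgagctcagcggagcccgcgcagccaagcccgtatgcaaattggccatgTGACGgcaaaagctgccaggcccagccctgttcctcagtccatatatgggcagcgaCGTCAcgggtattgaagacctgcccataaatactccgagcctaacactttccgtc
Atf3 promoter, chr1:191183334-191183583, minus strand: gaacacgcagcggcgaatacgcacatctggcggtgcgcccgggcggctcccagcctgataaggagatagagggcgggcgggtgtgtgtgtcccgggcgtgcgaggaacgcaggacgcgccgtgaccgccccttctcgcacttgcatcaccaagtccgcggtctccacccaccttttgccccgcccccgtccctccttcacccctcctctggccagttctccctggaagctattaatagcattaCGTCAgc
Dusp1 promoter, chr17:26508473-26508722, minus strand: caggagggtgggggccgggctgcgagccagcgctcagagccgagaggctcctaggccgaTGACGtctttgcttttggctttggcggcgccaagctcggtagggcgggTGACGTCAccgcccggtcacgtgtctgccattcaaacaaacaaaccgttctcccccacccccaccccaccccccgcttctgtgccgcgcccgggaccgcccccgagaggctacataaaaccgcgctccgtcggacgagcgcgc

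Promoters were searched for 7 of the 10 members. Members on chromosome 18, that is Egr1, were left out of this search, so the counts below say nothing about Egr1. Windows of 300 bases, 250 before and 50 after the start, were searched on both strands. The CRE core occurred in 6 of these 7 members (Fos, Fosb, Junb, Egr2, Atf3 and Dusp1), while 23.0% of all 27025 genes with an entry held it. In Fos it lay at −66 to −62 and at −129 to −125 from the start site, in Fosb at −60 to −56, in Junb at −106 to −102 and in Atf3 at −7 to −3 on the other strand. Dusp1 held it at −191 to −187 and at −143 to −139, where it overlaps a copy on the other strand at −140 to −136. The Egr2 window shown held it at −111 to −107 and, on the other strand, at −55 to −51, and between them a CArG box at −72 to −63, the element that serum response factor binds. A CArG box was found in the windows of 1 of these 7 members, Egr2, and in 1.81% of all genes. The AP-1 site (TGACTCA or TGAGTCA) was found in 0 of the 7 members and in 5.95% of all genes, and the TATA box TATAAA in 2 (Fos at −33 to −28 and Junb at 1 to 6 after the start) and in 15.7% of all genes. These are matches of letters in short windows, and a factor's binding was not measured.

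The members are spread over 9 chromosomes of GRCm38 (mm10), as annotated by GENCODE M21: Fos on chromosome 12 (85473890 to 85477273), Fosb on 7 (19302696 to 19310051), Jun on 4 (95049034 to 95052222), Junb and Ier2 on 8 (84974484 to 84978718 and 84661331 to 84662852), Egr1 on 18, Egr2 on 10 (67535475 to 67542188), Egr3 on 14 (70077203 to 70082614), Atf3 on 1 (191170296 to 191218039) and Dusp1 on 17 (26505590 to 26562128). The counts fall on exons of the whole gene. Whether the counting used strand is not given in the sources used here, so the values of Junb, which overlaps Prdx2 on the opposite strand, and of Dusp1, which overlaps Ergic1, are uncertain to that extent. Junb shares 173 of its 2301 exon bases with other counted genes, and Dusp1 11 of its 3311. Prdx2 averaged 373 CPM in TAC 8W and 408 CPM in Sham 1-3.

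Levels are given as CPM, with library sizes scaled by TMM factors, and adjusted p-values are edgeR's quasi-likelihood test with Benjamini-Hochberg adjustment over 12626 genes, called at 0.05. Of the 10 members, 9 passed the filter on low counts and were tested, and Egr3 was not. Fosb reached 10 counts only in the 3 TAC 8W libraries. Egr2 reached 10 counts in 7 libraries, but the 4 outside TAC 8W held only 10 or 11. The filter scales counts to the size of the library, and on that scale only the TAC 8W libraries met it for either gene. Both were therefore tested through the group in which they were high, and the counts over members below are to be read with that in mind. TAC 8W had the highest mean of the 7 sets of libraries for 7 members, Sham 4-6 for Junb and Ier2, and TAC 8W + Sema 8W for Dusp1, while Sham 1-3 had the lowest mean for 7 members. For 4 members (Fos, Fosb, Egr2 and Atf3) every TAC 8W library lay above each of the 18 other libraries. For Fos the margin was narrow, 19.3 CPM in the lowest TAC 8W library against 18.9 CPM in the highest other. The share of all genes for which this holds was not counted, so it is a description of these 4 only.

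**Figure D1:**
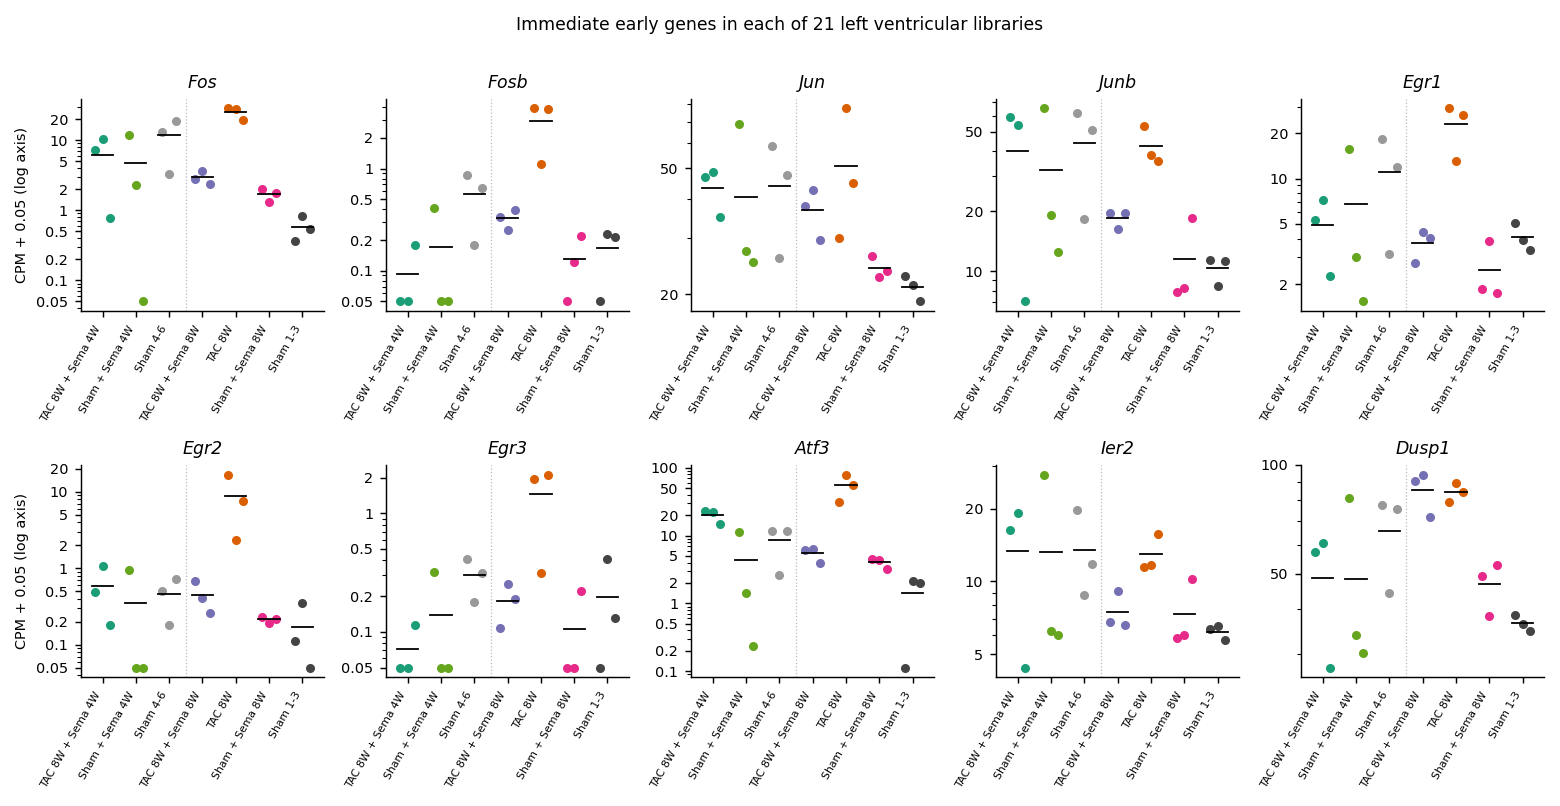
CPM (plus 0.05, log axis) of the 10 members in each library, as points, with the group mean as a line. The dotted line parts the 4-week groups with Sham 4-6 (left) from the 8-week groups with Sham 1-3. In Fos, Fosb, Egr2 and Atf3 the 3 TAC 8W points lie above all 18 others, though in Fos only narrowly (19.3 against 18.9 CPM). In Dusp1 the TAC 8W + Sema 8W points lie among those of TAC 8W.

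The comparison of TAC 8W with Sham 1-3 asked how pressure overload changed these transcripts. Of the 9 members tested, 4 were higher in TAC 8W, beside 1.55% of the 12626 genes tested. They were Fos, Fosb, Egr2 and Atf3, with log2 fold changes of 4.58 to 5.99. The other 5 had positive log2 fold changes of 1.07 to 2.49 that did not pass the test. With edgeR, 8 members and 1523 genes had an unadjusted p under 0.05. The median over the 9 was 2.49 on the log2 scale, against 0.08 over all genes tested. For 9 of the 10 members the TAC 8W and Sham 1-3 libraries did not overlap, as for 20.4% of all genes tested.

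Of the AP-1 genes, Fos stood at 28.4, 27.8 and 19.3 CPM in TAC 8W and 0.314, 0.785 and 0.493 CPM in Sham 1-3. The lowest TAC 8W library was well above the highest of these shams, and the log2 fold change was 5.53 (SE 1.02, adjusted p = 0.00485, edgeR). Fosb had 3.85, 1.06 and 3.75 CPM in TAC 8W and 0, 0.181 and 0.164 CPM in Sham 1-3, where the 3 libraries held 5 counts in all (log2 fold change 4.58, SE 0.97, edgeR adjusted p = 0.0129). Replicate 2 was the lowest of the 3 TAC 8W libraries in Fosb, but above every sham. Their partners differed less. Jun was at 29.97, 77.2 and 44.7 CPM in TAC 8W, with replicate 2 far above the others, and at 22.7, 21.3 and 18.9 CPM in Sham 1-3 (log2 fold change 1.27, SE 0.37, edgeR adjusted p = 0.0873). Junb was at 53.2, 38.2 and 35.5 CPM in TAC 8W and 11.3, 8.40 and 11.3 CPM in Sham 1-3, with no overlap between the groups (2.04, SE 0.63, edgeR adjusted p = 0.114).

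Among the zinc finger factors, Egr2 had 16.7, 2.30 and 7.58 CPM in TAC 8W and 0.0628, 0.302 and 0 CPM in Sham 1-3. The TAC 8W libraries differed widely from each other, yet the lowest exceeded the highest of these shams, and the log2 fold change was 5.99 (SE 1.05, edgeR adjusted p = 0.00387). The 3 shams held 6 counts of Egr2 together. Egr1 was at 29.1, 13.1 and 26.4 CPM in TAC 8W and 5.03, 3.87 and 3.29 CPM in Sham 1-3, without overlap, and did not pass the test (2.49, SE 0.67, edgeR adjusted p = 0.0584). Egr3, untested, had 1.88, 0.27 and 2.07 CPM in TAC 8W, and 0, 0.363 and 0.0822 CPM in Sham 1-3. Replicate 2 of TAC 8W was within the range of the shams for Egr3, and it was also the lowest TAC 8W library for Egr1, Egr2 and Fosb.

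Atf3 rose to 30.7, 79.2 and 55.5 CPM in TAC 8W, against 0.0628, 2.05 and 1.97 CPM in Sham 1-3 (log2 fold change 5.34, SE 0.91, edgeR adjusted p = 0.00327). Here replicate 2 was the highest TAC 8W library, and Sham replicate 1, with 1 count, the lowest sham. Ier2 was at 11.5, 11.6 and 15.7 CPM in TAC 8W and 6.28, 6.46 and 5.67 CPM in Sham 1-3 (1.07, SE 0.52, edgeR adjusted p = 0.423). Dusp1, the feedback phosphatase, was at 79.0, 89.4 and 84.1 CPM in TAC 8W and 38.3, 36.4 and 34.7 CPM in Sham 1-3. The spread within its groups was small, at 84.2 ± 5.20 CPM in TAC 8W and 36.5 ± 1.82 CPM in Sham 1-3 (SD, n = 3 each), and its log2 fold change of 1.21 (SE 0.33) had an edgeR adjusted p of 0.0666.

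Fosb lost its call without Sham replicate 1, 2 or 3 or without TAC 8W replicate 1 (edgeR adjusted p = 0.0972, 0.0668, 0.0532 and 0.0719), Fos without Sham replicate 1 (edgeR adjusted p = 0.0529), and Egr1 gained one without TAC 8W replicate 2 (edgeR adjusted p = 0.0477). Against all 6 shams as 1 group, Fosb, Egr2 and Atf3 kept their calls and Fos stood at 2.04 (edgeR adjusted p = 0.247).

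A wider list of the class was read in the same comparison. Of 42 other immediate early genes, 40 were tested, 16 were higher in TAC 8W and 0 lower, with a median log2 fold change of 1.49 against 0.08 over all genes. The 4 with the smallest adjusted p were Ccn1, a matricellular protein (2.55, edgeR adjusted p = 0.000556), Ier5 (1.89, edgeR adjusted p = 0.00132), the growth factor Hbegf (2.38, edgeR adjusted p = 0.00252) and Maff, a small Maf factor (3.16, edgeR adjusted p = 0.00269). Of 20 upstream regulators, such as Srf, its cofactors, Creb1 and the MAP kinases, 0 were called in either direction, with a median of 0.20. Among cell type markers, 2 of 6 fibroblast genes were higher in TAC 8W, Col1a1 (2.33, edgeR adjusted p = 0.00565) and Col1a2 (1.99, edgeR adjusted p = 0.0130). The rest of that list was not called. Means in TAC 8W and Sham 1-3 were 11.0 and 7.15 CPM for Pdgfra, 411 and 322 CPM for Dcn, 42.5 and 41.5 CPM for Lum, and 4.90 and 6.30 CPM for Tcf21. The summed fibroblast markers were 1748, 469 and 897 CPM in TAC 8W and 481, 502 and 536 CPM in Sham 1-3. Replicate 1 of TAC 8W was the highest in them, the highest TAC 8W library in 5 members and the lowest in 4, Atf3 among these. The part of the fibroblast markers in the result was not tested. Of 4 atrial markers 1 was higher, Nppa, which stressed ventricles also express (4.30, edgeR adjusted p = 0.00945).

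The comparison of TAC 8W + Sema 8W with TAC 8W asked whether 8 weeks of Sema changed these transcripts under overload. With Sema, 5 of the 9 members tested were lower, beside 5.18% of genes called lower, and 0 were higher. They were Fos, Fosb, Egr1, Egr2 and Atf3, with log2 fold changes of −4.44 to −2.63. Jun, Junb, Ier2 and Dusp1 were not called. The median over the 9 was −2.63, against −0.12 over all genes tested, and for 8 of 10 members the libraries of the groups did not overlap, as for 27.3% of genes. TAC 8W is the control here and the treated arm above, so the values of both comparisons rest on the same 3 libraries.

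Fos was at 2.70, 3.64 and 2.34 CPM in TAC 8W + Sema 8W, against 28.4, 27.8 and 19.3 CPM in TAC 8W (log2 fold change -3.11, SE 0.87, edgeR adjusted p = 0.0373). The Sema libraries lay close together, at 2.89 ± 0.667 CPM (SD, n = 3). Fosb had 0.287, 0.202 and 0.345 CPM in TAC 8W + Sema 8W and 3.85, 1.06 and 3.75 CPM in TAC 8W (-3.36, SE 0.86, edgeR adjusted p = 0.0236). Junb stood at 19.6, 16.2 and 19.4 CPM in TAC 8W + Sema 8W and 53.2, 38.2 and 35.5 CPM in TAC 8W. Its libraries did not overlap, but the difference of -1.20 (SE 0.61) had an edgeR adjusted p of 0.285. Jun overlapped, with 38.0, 42.6 and 29.5 CPM in TAC 8W + Sema 8W and 29.97, 77.2 and 44.7 CPM in TAC 8W (-0.46, SE 0.37, edgeR adjusted p = 0.526).

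Of the Egr genes, Egr1 was at 2.70, 4.39 and 4.00 CPM in TAC 8W + Sema 8W and 29.1, 13.1 and 26.4 CPM in TAC 8W (-2.63, SE 0.67, edgeR adjusted p = 0.0242). Egr2 was at 0.632, 0.353 and 0.207 CPM in TAC 8W + Sema 8W and 16.7, 2.30 and 7.58 CPM in TAC 8W (-4.44, SE 0.92, edgeR adjusted p = 0.00703). Egr3 held 7 counts over the 3 TAC 8W + Sema 8W libraries and 79 over the TAC 8W libraries. Without the count filter its log2 fold change was −3.26 (SE 1.05, edgeR adjusted p = 0.0867). Atf3 fell to 6.03, 6.31 and 3.93 CPM in TAC 8W + Sema 8W, against 30.7, 79.2 and 55.5 CPM in TAC 8W (-3.34, SE 0.81, edgeR adjusted p = 0.0169).

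Ier2 and Dusp1 were not called. Ier2 was at 6.72, 9.09 and 6.55 CPM in TAC 8W + Sema 8W and 11.5, 11.6 and 15.7 CPM in TAC 8W, without overlap (-0.79, SE 0.51, edgeR adjusted p = 0.420). Dusp1 was at 90.1, 94.0 and 71.6 CPM in TAC 8W + Sema 8W, with libraries above and below the 79.0, 89.4 and 84.1 CPM of TAC 8W. Its log2 difference was 0.02 (SE 0.33, edgeR adjusted p = 0.982), with -0.05 to 0.13 when each library was left out.

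The number of members called lower depended on single libraries. Leaving out TAC 8W replicate 1 gave 1 (Atf3), and replicate 3 gave 2 (Egr2 and Atf3). Leaving out replicate 2 gave 5, which were 4 of the members above, without Fos, and Egr3, which then passed the filter only through its counts in TAC 8W. Leaving out TAC 8W + Sema 8W replicate 1, 2 or 3 gave 1 (Egr2), 2 (Egr2 and Atf3) and 0. Without TAC 8W + Sema 8W replicate 3 the log2 fold changes stayed at -2.98 for Fos, -3.52 for Fosb, -2.68 for Egr1, -4.16 for Egr2 and -3.15 for Atf3, with edgeR adjusted p of 0.0647 to 0.201.

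**Figure D2:**
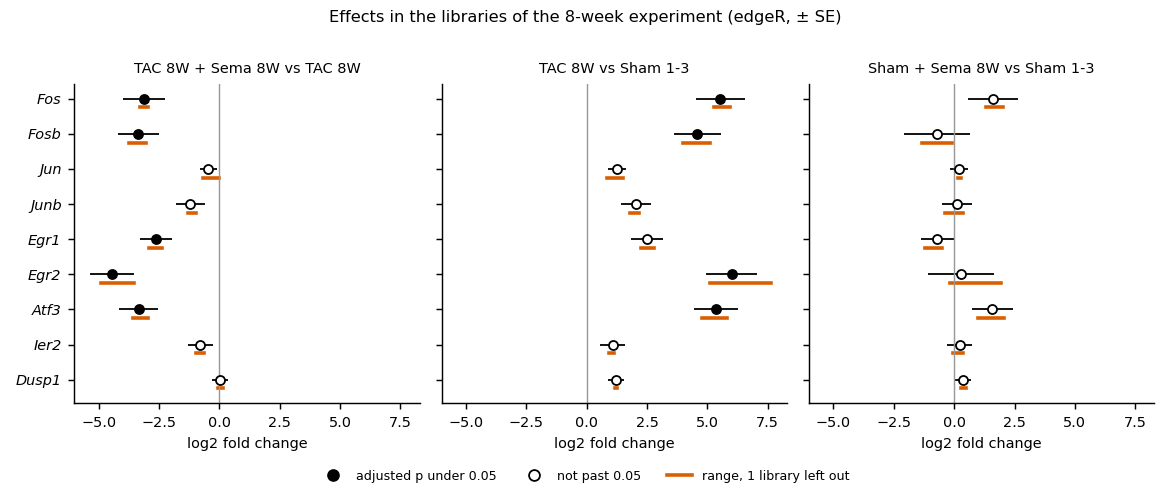
Log2 fold changes of the 9 members tested, with SE, in 3 comparisons of the 8-week libraries (filled points passed an adjusted p of 0.05, and the bar under each point spans the values when each library was left out). Fos, Fosb, Egr2 and Atf3 lie far right in TAC 8W against Sham 1-3 and left, with Egr1, in TAC 8W + Sema 8W against TAC 8W, while 0 members passed in Sham + Sema 8W against Sham 1-3.

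Some other immediate early genes were called too. Of the 40 other immediate early genes tested, 4 were lower and 0 higher, with a median of −0.57 against −0.12 over all genes. These were Nfil3, a leucine zipper repressor (-2.11, edgeR adjusted p = 0.00569), Nfkbiz (-2.14, edgeR adjusted p = 0.0326), the prostaglandin synthase Ptgs2 (-4.16, edgeR adjusted p = 0.0337) and the kinase Plk2 (-1.03, edgeR adjusted p = 0.0470). Of 20 upstream regulators 2 were lower, Nab1, a corepressor that binds Egr proteins (-1.34, edgeR adjusted p = 0.0268), and the kinase Rps6ka3 (-1.26, edgeR adjusted p = 0.0399). Markers moved as well. Col1a1 and Col1a2 were lower, 2 of 6 fibroblast markers, as was 1 of 5 mural cell markers, Rgs5 (-1.27, edgeR adjusted p = 0.0246). The summed fibroblast markers were 447, 514 and 366 CPM in TAC 8W + Sema 8W and 1748, 469 and 897 CPM in TAC 8W, and their part in the result was not tested.

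Set against Sham 1-3, TAC 8W + Sema 8W showed 1 member higher, Dusp1, and 1.09% of genes were called higher. Dusp1 was at 85.2 ± 11.99 CPM in TAC 8W + Sema 8W and 36.5 ± 1.82 CPM in Sham 1-3 (SD, n = 3 each), that is, 1.22 on the log2 scale (SE 0.33, edgeR adjusted p = 0.0469). The call was lost without any 1 of the 6 libraries, with log2 fold changes of 1.15 to 1.34. Fos, at 2.70, 3.64 and 2.34 CPM in TAC 8W + Sema 8W and 0.314, 0.785 and 0.493 CPM in Sham 1-3, had 2.42 (SE 0.97, edgeR adjusted p = 0.185), and Atf3 had 2.01 (SE 0.84, edgeR adjusted p = 0.205). Egr1 was at 2.70, 4.39 and 4.00 CPM in TAC 8W + Sema 8W and 5.03, 3.87 and 3.29 CPM in Sham 1-3, overlapping (-0.14, SE 0.66). For 7 of 10 members the libraries did not overlap, as for 33.7% of genes tested, with those of TAC 8W + Sema 8W the higher in each of the 7. Among the 40 other immediate early genes 10 were higher and 0 lower, led by Cebpb (1.87, edgeR adjusted p = 0.00224), Cebpd (2.76, edgeR adjusted p = 0.00224), Gadd45b (2.21, edgeR adjusted p = 0.00267) and Maff (3.27, edgeR adjusted p = 0.00269).

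Sema for 8 weeks without overload gave no call. In Sham + Sema 8W against Sham 1-3, 0 of 9 members passed, as did 0% of the genes tested, with edgeR, while 456 genes and 0 members had an unadjusted p under 0.05. DESeq2 called 3 genes and limma-voom 0, with 0 members in either, and limma-voom with quality weights called 1, Atf3. For 2 of 10 members, Fos and Atf3, the libraries did not overlap, as for 10.7% of genes. Fos was at 1.98, 1.27 and 1.69 CPM in Sham + Sema 8W and 0.314, 0.785 and 0.493 CPM in Sham 1-3 (1.598, SE 1.03, edgeR adjusted p = 0.890), and Atf3 was at 4.50, 4.32 and 3.22 CPM in Sham + Sema 8W and 0.0628, 2.05 and 1.97 CPM in Sham 1-3 (1.58, SE 0.86, edgeR adjusted p = 0.890). Both log2 fold changes were positive against Sham 1-3, whereas those of Sema under TAC were negative. Over all 6 shams the means were 6.13 CPM for Fos and 4.95 CPM for Atf3, above the 1.65 and 4.01 CPM of Sham + Sema 8W. The positive sign held in 18 of 19 alternatives for each gene, and the lowest values were -1.89 for Fos and -0.28 for Atf3. Whether the Sema effect differed between overloaded and sham hearts was tested as a difference of the log2 fold changes, a test added after the data were seen. It gave 0 members with edgeR, 3 of them with an unadjusted p under 0.05, beside 0.475% of genes. Atf3 came nearest, at -4.92 (SE 1.17, edgeR adjusted p = 0.0615), then Fos at -4.71 (SE 1.33, edgeR adjusted p = 0.114). DESeq2 called 1 member, Atf3 (adjusted p = 0.0311). The 0.475% of genes is edgeR's share, and that of DESeq2 is not given here.

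The libraries of the 4-week groups and Sham 4-6 were spread widely in these genes. Sham 5 was the lowest of Sham 4-6 in all 10 members, Sham + Sema 4W replicate 1 was the highest of its group in all 10, and TAC 8W + Sema 4W replicate 3 was the lowest of its group in 8. The 10 members together summed to 215, 224 and 91.6 CPM in TAC 8W + Sema 4W, 283, 93.0 and 75.4 CPM in Sham + Sema 4W, and 262, 106 and 229 CPM in Sham 4-6. In the 8-week groups and Sham 1-3 the sums were 167, 177 and 138 CPM in TAC 8W + Sema 8W, 284, 340 and 295 CPM in TAC 8W, 97.9, 84.7 and 112 CPM in Sham + Sema 8W, and 84.1, 80.1 and 76.5 CPM in Sham 1-3. In each of the first 3 sets the highest library was over 2 times the lowest, which held for 0 of the 4 other sets.

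**Figure D3:**
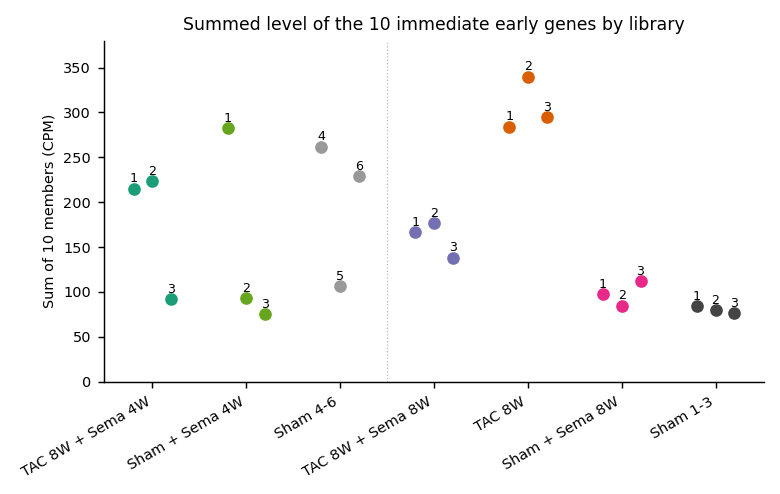
Sum of the CPM of the 10 members in each library, with the replicate number beside each point and groups along the axis. The 3 libraries of each 4-week group (left of the dotted line) are split, for example 262 and 229 against 106 CPM in Sham 4-6, and Sham 1-3 spans 76.5 to 84.1 CPM.

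The shams were set against each other by running number, as a check on comparisons that cross the sets. Of the 9 members tested, 1, Fos, was higher in Sham 4-6 than in Sham 1-3, beside 2.80% of genes called higher, and all 9 log2 fold changes were positive, with a median of 1.59 against 0.02 over all genes. With edgeR, 7 members and 2341 of the 12626 genes tested had an unadjusted p under 0.05. Fos was at 13.1, 3.26 and 18.9 CPM in Sham 4-6 and 0.314, 0.785 and 0.493 CPM in Sham 1-3 (4.43, SE 0.99, edgeR adjusted p = 0.0181). The call was lost without Sham 1, 2, 3, 4 or 6, at edgeR adjusted p of 0.0996, 0.0962, 0.0646, 0.0515 and 0.0653. Junb was at 62.1, 18.1 and 50.6 CPM in Sham 4-6 and 11.3, 8.40 and 11.3 CPM in Sham 1-3 (2.08, SE 0.63, edgeR adjusted p = 0.0782), and Atf3 at 11.6, 2.54 and 11.5 CPM in Sham 4-6 and 0.0628, 2.05 and 1.97 CPM in Sham 1-3 (2.65, SE 0.85, edgeR adjusted p = 0.0950). Of 10 members 6 did not overlap, as 37.3% of genes did not. The mitochondrial share was 45.1 to 48.4% in Sham 4-6 and 25.2 to 32.6% in Sham 1-3. With the 13 mitochondrial genes left out Fos was still called (4.45, edgeR adjusted p = 0.0166). No marker of another cell type was called, and the summed fibroblast markers were 856, 652 and 616 CPM in Sham 4-6 and 481, 502 and 536 CPM in Sham 1-3, whose part in the result was not tested. The atrial list had the largest median log2 fold change of the 10 marker lists, 2.96, and its sums were 384, 1584 and 155 CPM in Sham 4-6 and 432, 174 and 382 CPM in Sham 1-3. Sham 5, the lowest of Sham 4-6 in all 10 members, was the highest in the atrial sum, and the part of these genes was not tested. The atrial median was -7.22 in TAC 8W + Sema 4W and -6.13 in Sham + Sema 4W, each against Sham 4-6. The atrial sums were 2762, 2711 and 306 CPM in TAC 8W + Sema 4W and 507, 192 and 621 CPM in Sham + Sema 4W. Against Sham 4-6 these sums did not fall as the medians over 4 genes did. In TAC 8W + Sema 4W against TAC 8W it was -3.74. In each of these comparisons 0 atrial markers were called.

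In TAC 8W + Sema 4W, 3 of 9 members were lower than in TAC 8W, beside 3.05% of genes called lower, and 0 were higher. This comparison crosses both sets of libraries, and the TAC 8W libraries are those used above. Fosb had 0, 0 and 2 counts in TAC 8W + Sema 4W and 100, 12 and 49 counts in TAC 8W, a ratio of scaled levels of 0.0182 (95% interval 0.00219 to 0.0670) that covers counting error only. Its fitted log2 fold change was -5.49 (SE 1.09, edgeR adjusted p = 0.00627). Egr2 was at 0.435, 1.03 and 0.130 CPM in TAC 8W + Sema 4W and 16.7, 2.30 and 7.58 CPM in TAC 8W (-4.12, SE 0.93, edgeR adjusted p = 0.0116). Egr1 was at 5.22, 7.21 and 2.21 CPM in TAC 8W + Sema 4W and 29.1, 13.1 and 26.4 CPM in TAC 8W (-2.25, SE 0.67, edgeR adjusted p = 0.0466). All 3 pairs of groups were without overlap, as were 7 of 10 members and 21.5% of genes.

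The other 6 tested members were not called. Fos was at 7.07, 10.3 and 0.715 CPM in TAC 8W + Sema 4W and 28.4, 27.8 and 19.3 CPM in TAC 8W (-2.08, SE 0.83, edgeR adjusted p = 0.134). Atf3 was at 23.2, 22.5 and 14.6 CPM in TAC 8W + Sema 4W and 30.7, 79.2 and 55.5 CPM in TAC 8W (-1.46, SE 0.75, edgeR adjusted p = 0.240), and Dusp1 was at 57.3, 60.9 and 27.5 CPM in TAC 8W + Sema 4W and 79.0, 89.4 and 84.1 CPM in TAC 8W (-0.79, SE 0.33, edgeR adjusted p = 0.149). Jun, Junb and Ier2 overlapped, with log2 fold changes of -0.22, -0.09 and 0.03. Egr3 held 1 count in TAC 8W + Sema 4W and 79 counts in TAC 8W. Markers of other cells were lower as well, with 4 of 6 fibroblast genes, 1 of 6 endothelial genes and 1 of 6 macrophage genes called. The fibroblast sums were 325, 332 and 248 CPM in TAC 8W + Sema 4W and 1748, 469 and 897 CPM in TAC 8W, the macrophage sums 74.1, 71.1 and 40.9 CPM in TAC 8W + Sema 4W and 258, 65.5 and 147 CPM in TAC 8W, and their part in the result was not tested. Of the 40 other immediate early genes, 3 were lower and 1, the Fos family gene Fosl1 (2.21, edgeR adjusted p = 0.0431), was higher.

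The calls of Egr1 and Egr2 rested on single libraries. The count of members lower was 1, 4 and 2 without TAC 8W replicates 1, 2 and 3, and 1, 2 and 3 without TAC 8W + Sema 4W replicates 1, 2 and 3. Fosb passed in each of these fits, but it reached 10 counts only in TAC 8W libraries and was tested through its counts there. Egr2 lost its call when TAC 8W replicate 1 (edgeR adjusted p = 0.0901) or TAC 8W + Sema 4W replicate 1 (edgeR adjusted p = 0.0514) was left out. Egr1 passed only without TAC 8W replicate 2. Without TAC 8W + Sema 4W replicate 3, the library that stood apart, Fosb and Egr2 had edgeR adjusted p of 0.00378 and 0.0134, and Egr1 had 0.0601. Egr3 was called in that fit and in the one without TAC 8W replicate 2, where it passed the filter only through its counts in TAC 8W.

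**Figure D4:**
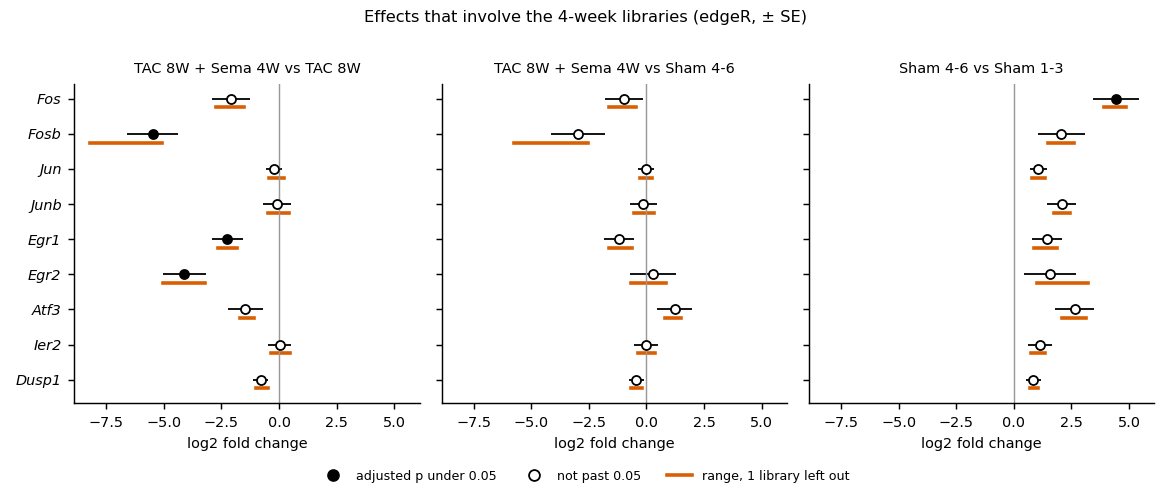
Log2 fold changes of the 9 members tested, with SE, in 3 comparisons that use libraries of the 4-week set (filled points passed an adjusted p of 0.05, and the bar under each point spans the values when each library was left out). Fosb, Egr1 and Egr2 are filled and negative against TAC 8W, 0 points are filled against Sham 4-6, and Fos is the filled point between the shams.

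Against the shams of its own set, Sham 4-6, TAC 8W + Sema 4W showed 0 of 9 members past the test with edgeR, 1 with an unadjusted p under 0.05, and 0 with DESeq2, beside 2.01% of genes. Of 10 members 3 (Fosb, Egr3 and Atf3) did not overlap, as for 20.1% of genes. Atf3 was at 23.2, 22.5 and 14.6 CPM in TAC 8W + Sema 4W and 11.6, 2.54 and 11.5 CPM in Sham 4-6, above every sham of the set (1.24, SE 0.76, edgeR adjusted p = 0.485). Fosb had 0, 0 and 2 counts in TAC 8W + Sema 4W and 9, 2 and 9 counts in Sham 4-6 (-2.98, SE 1.18, edgeR adjusted p = 0.214). Without TAC 8W + Sema 4W replicate 3, Atf3 was at 1.39 (edgeR adjusted p = 0.284). Of 40 other immediate early genes, 6 were higher in TAC 8W + Sema 4W than in Sham 4-6 and 1 lower, with a median of 0.38 against 0.04 over all genes. Those of smallest adjusted p were Hbegf (3.07, edgeR adjusted p = 0.000670), Myc (3.41, edgeR adjusted p = 0.00516), Gadd45g (3.41, edgeR adjusted p = 0.00664) and Ccn1 (1.81, edgeR adjusted p = 0.00853), all higher.

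Each overloaded arm was then set against the shams of its own set, and the difference of the log2 fold changes was tested. All 9 members had negative values in it, that is, a lower log2 fold change for TAC 8W + Sema 4W against Sham 4-6, which was below 0 in 7 of the 9, than for TAC 8W against Sham 1-3, with a median of −3.68 against 0.00 over all genes. With edgeR 0 members passed, although 8 had an unadjusted p under 0.05, beside 0.0158% of genes called, which were 2 genes. Fosb was at -7.55 (SE 1.499, edgeR adjusted p = 0.0901) and Fos at -6.51 (SE 1.29, edgeR adjusted p = 0.0901). DESeq2 called 4 members, Fos, Fosb, Egr1 and Egr2. The 0.0158% of genes is edgeR's share, and that of DESeq2 is not given here. Without TAC 8W + Sema 4W replicate 3, edgeR called 2, Fos (adjusted p = 0.0298) and Fosb (adjusted p = 0.0308), and without TAC 8W replicate 2 it called 1, Fosb (adjusted p = 0.0358).

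Sema for 4 weeks in sham hearts gave 0 members past the test with edgeR, 0 with an unadjusted p under 0.05 and 0 with DESeq2, beside 0% of genes, 1798 of which had an unadjusted p under 0.05. Its libraries overlapped those of Sham 4-6 in all 10 members, whereas 18.6% of genes did not overlap. Fos was at 11.6, 2.21 and 0 CPM in Sham + Sema 4W and 13.1, 3.26 and 18.9 CPM in Sham 4-6 (-1.27, SE 0.83), and Jun at 68.8, 27.4 and 25.2 CPM in Sham + Sema 4W and 58.7, 25.9 and 47.5 CPM in Sham 4-6 (-0.12, SE 0.37). Replicate 1 of Sham + Sema 4W lay near the upper shams in both, and the other two lay near or under Sham 5.

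Over the 21 libraries the members' levels were correlated. Each member's log2 CPM correlated with the mean of the other 8 tested members at a Pearson r of 0.70 (Fosb) to 0.94 (Fos). Within groups the spread on the log2 scale was smallest for Dusp1 (SD 0.44) and Jun (SD 0.49) and largest for Fos (SD 1.52) and Atf3 (SD 1.34). These values describe libraries that share groups and scaling. Of all other genes tested, Nr4a genes left out, the 10 with the highest Pearson r to the mean of the scaled members over the 21 libraries were Gm20481 and Hspa1b (0.90 each), Hspa1a (0.87), Fosl2 (0.86), Cdr2 (0.85), Btg2 (0.84), Actg1 (0.83), Zyx (0.82), Ppp1r18 (0.81) and Sema4c (0.80). Within the 12 libraries of the 8-week set r was 0.82 to 0.94 for these genes, and within the 9 of the 4-week set 0.73 to 0.91. Fosl2 is itself a Fos family gene and Btg2 an early response gene. Hspa1a and Hspa1b code for nearly identical inducible heat shock proteins, so reads could be split between them, and Gm20481 lies on the opposite strand inside Hspa1a, so the 3 are not independent.

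Of the heat shock genes, Hspa1a was at 3.16, 4.75 and 2.97 CPM in TAC 8W + Sema 8W, 13.5, 72.6 and 24.2 CPM in TAC 8W and 0.440, 0.121 and 0.493 CPM in Sham 1-3. TAC 8W exceeded Sham 1-3 by 6.71 on the log2 scale (SE 1.47, edgeR adjusted p = 0.0168), and TAC 8W + Sema 8W differed from TAC 8W by -3.33 (SE 1.16, edgeR adjusted p = 0.0971). In the 4-week set Hspa1a was at 39.4, 38.8 and 4.22 CPM in TAC 8W + Sema 4W, 27.8, 1.47 and 0.185 CPM in Sham + Sema 4W and 25.9, 0.848 and 6.82 CPM in Sham 4-6. The libraries that were low in the members, Sham 5, TAC 8W + Sema 4W replicate 3 and Sham + Sema 4W replicates 2 and 3, were also the low ones of their groups in Hspa1a. Hspa1a, Btg2 and Sema4c were picked for their correlation with the members in these same libraries. That they were high and low in the same libraries follows from that choice, and the p-values given for them are no separate support. Btg2 was at 34.5, 43.8 and 28.3 CPM in TAC 8W and 6.54, 4.71 and 4.52 CPM in Sham 1-3 (2.75, SE 0.49, edgeR adjusted p = 0.00448), and Sema4c, a semaphorin, at 7.29, 9.54 and 7.10 CPM in TAC 8W + Sema 8W and 29.8, 13.8 and 24.0 CPM in TAC 8W (-1.498, SE 0.34, edgeR adjusted p = 0.0119).

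**Figure D5:**
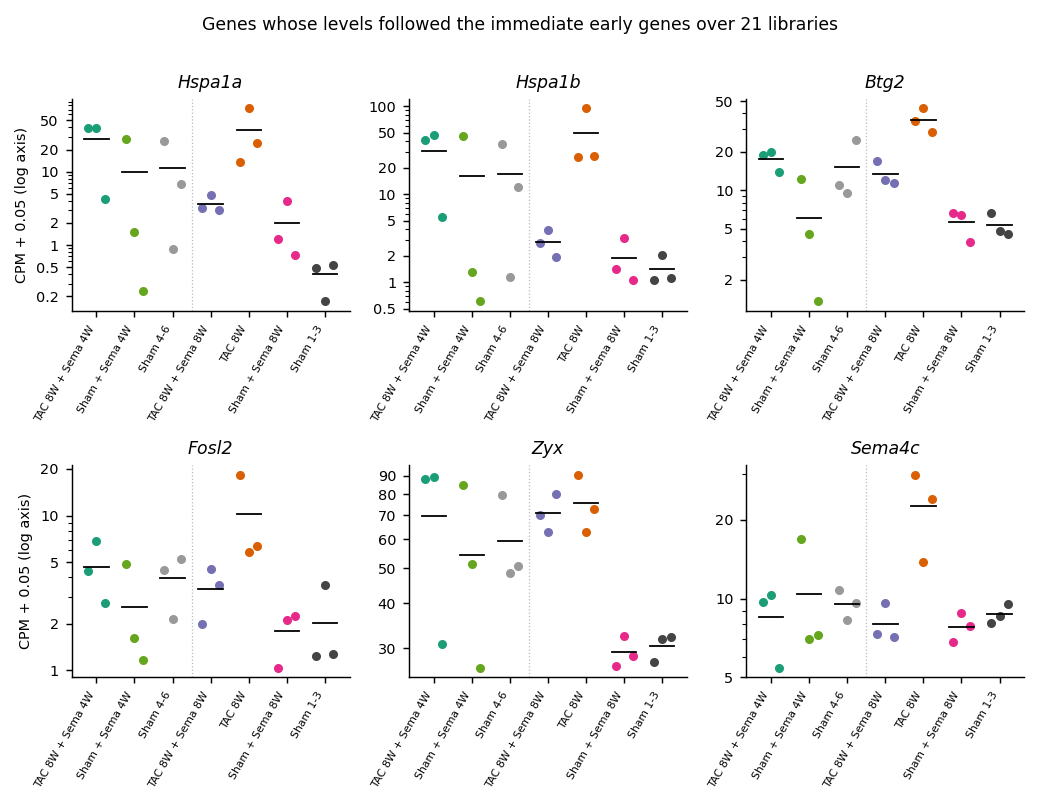
CPM (plus 0.05, log axis) of 6 of the 10 genes most like the members over 21 libraries, as points, with the group mean as a line and the dotted line between the 4-week and 8-week sets. In Hspa1a and Hspa1b the 3 TAC 8W points lie above all points of the 8-week Sema groups and of Sham 1-3, and each 4-week group has at least 1 library far under another.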

How the data were processed

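Left ventricular RNA was sequenced as poly(A) mRNA libraries. Per the labels and the study's methods, the authors trimmed reads with cutadapt 1.11, aligned them to mm10 with hisat2 and deposited raw counts per gene from featureCounts 1.6.0. Of the annotation and the strand setting, neither is given in the sources used here. The Sema columns are named high, M or with no suffix, not as the labels name the groups. High was matched to Sema 8W by dose and M to Sema 4W by elimination, and no source explains M. Symbols came from GENCODE M21 for 22041 of 22136 gene IDs.

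The counts were fitted with edgeR 4.0.16 (R 4.3.3) in 1 quasi-likelihood model with 7 means, TMM factors, a filter of 10 counts in the smallest group and 15 in all, and Benjamini-Hochberg adjustment over 12626 genes at 0.05. The biological coefficient of variation was 34.6%. Alternatives were DESeq2 1.42.0, limma-voom 3.58.1, upper quartile or RLE factors, other filters and samples, a GC and length correction, a replicate block and each library left out. The code was tested on simulated data. The difference of the 8-week Sema effects was added after the data were seen.

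The members and lists were chosen with earlier results of these data known. All 10 members were described in every comparison, with up to 4 genes by smallest adjusted p among those called in each of the 2 lists, the 10 genes most correlated with the members, and markers that moved with a result. Total counts of 8897837 to 17170139 per library limit genes such as Egr3 and Fosb, and counting intervals cover counting error only.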

Additional observations from a re-analysis of the deposited data

How the results depend on the processing

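No called member changed direction under the alternatives run, but the counts of members called moved. For TAC 8W against Sham 1-3 the count of 4 became 7 with DESeq2, 9 with limma-voom and quality weights, 7 with only the groups compared and 7 with the GC and length trend removed, and for Sham 4-6 against Sham 1-3 the count of 1 became 2 with DESeq2, 0 with limma-voom, 6 with quality weights, 2 with limma-voom at an adjusted p under 0.1, 2 with no count filter and 6 with only the groups compared. For TAC 8W + Sema 8W against Sham 1-3 the count of 1 became 0 with upper quartile factors, limma-voom, the GC and length trend removed and all 6 shams as 1 group, 3 with quality weights and 4 with only the groups compared. For TAC 8W + Sema 4W against TAC 8W the count of 3 became 6 with quality weights, 5 with limma-voom at an adjusted p under 0.1 and 1 with only the groups compared. Counts of 0 became 1 with quality weights for Sham + Sema 8W against Sham 1-3 and 2 for TAC 8W + Sema 4W against Sham 4-6. The difference of the 4-week contrast from that of TAC 8W became 4 with DESeq2, 6 with quality weights and 2 with no count filter, and that of the 8-week Sema effects became 1 with DESeq2, 4 with quality weights, 1 with limma-voom at an adjusted p under 0.1, 1 with no count filter and 1 with only the groups compared. The cause was not tested. These counts stand without the share over all genes under each setting. Quality weights also called more of all genes in the comparisons where that count is given below. A higher count of members under a setting is therefore not by itself a result about the members.

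With each library left out, the counts of members called were 2 to 5 for TAC 8W against Sham 1-3, 0 to 5 for TAC 8W + Sema 8W against TAC 8W, 0 to 0 for TAC 8W + Sema 8W against Sham 1-3, 0 to 0 for Sham + Sema 8W against Sham 1-3, 1 to 4 for TAC 8W + Sema 4W against TAC 8W, 0 to 0 for TAC 8W + Sema 4W against Sham 4-6, 0 to 0 for Sham + Sema 4W against Sham 4-6, 0 to 1 between the shams, 0 to 2 for the 4-week difference and 0 to 0 for the 8-week difference. The highest counts against TAC 8W include Egr3, which passed the filter only through its counts in TAC 8W. Counts over all genes moved too, to 75 to 296 (280 with all libraries) for TAC 8W against Sham 1-3, to 158 to 906 (715) for TAC 8W + Sema 8W against TAC 8W, and to 305 to 3377 (916) for TAC 8W + Sema 4W against TAC 8W. With quality weights these 3 were 2661, 3524 and 6938.

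Replicate numbers do not pair the libraries by the labels, and of 45 same-numbered pairs 11 correlated above 0.1 (mean −0.026, against 0.0064 between different numbers). With the replicate number as a block, 1 member was called for TAC 8W + Sema 8W against TAC 8W (Egr2) and 0 for TAC 8W + Sema 8W against Sham 1-3, over 275 and 157 genes.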
